A study of Mus musculus with 52 samples.

Results

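Untreated mouse embryonic fibroblasts were separated into a fraction holding the endoplasmic reticulum (ER) and a cytosol fraction, and ribosome-protected mRNA fragments (footprints) were sequenced from each. The comparison of ER with cytosol took every gene that had a footprint score in both untreated fractions, which gave 10340 of the 22417 genes in the table. The labels give all 4 untreated footprint samples the genotype CReP+/-; GADD34+/+ (WT), no treatment and culture in DMEM with serum, with 2 replicates for each fraction. CReP and GADD34 are subunits that direct a phosphatase to the initiation factor eIF2 alpha, so heterozygosity for CReP is shared by every group. The other groups used below have that genotype too, and were treated with thapsigargin (Tg, an inhibitor of the ER calcium pump) for 4 h, or with the reducing agent dithiothreitol (DTT) for 30 min followed by 20 min of recovery.

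Ribosomes that begin a protein with a signal peptide or an early membrane segment are recognised by the signal recognition particle (SRP), which halts them briefly and docks them on its receptor in the ER membrane. The chain then enters the Sec61 channel while it is being made, so such ribosomes are bound to the ER. Proteins whose only membrane segment lies at the very C-terminal end (tail-anchored proteins) leave the ribosome before that segment appears and are inserted afterwards. Most proteins of mitochondria, the cytosol and the nucleus are made without SRP. Fibroblasts secrete much of the extracellular matrix and carry a large load of this ER-bound translation.

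Each fraction is given as 1 pooled score per gene, so the spread between replicates is not known, no difference was tested, and the depth behind each score is unknown. Scores summed to 447133 in the ER column and 627262 in the cytosol column. The median gene with both values had a log2 ratio of ER to cytosol of -0.46, computed as log2(score + 1) in each fraction, and every value below is given relative to that median gene. Because the columns carry separate constants, a relative value of 0 marks the median gene and not equal translation in both places. A gene is said to lie toward the ER when its relative value is above 1, which is over 2-fold, and toward the cytosol when it is below -1. Of the listed fibroblast markers 11 of 13 had both scores, among them the collagens Col1a1, Col1a2 and Col3a1, and a further 1 had an ER score only. Both scores were given for 0 of 6 endothelial, 0 of 7 blood cell, 1 of 8 epithelial (Krt19) and 2 of 7 muscle and neural markers (Map2 and Tubb3). An ER score with a blank in the cytosol was given for 3 of the endothelial, 1 of the blood cell, 4 of the epithelial and 1 of the muscle and neural markers, so other cell types are not shown to be absent.

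Over all 10340 genes, 1455 lay toward the ER (14.1%) and 136 toward the cytosol (1.32%), while 8749 stayed within 2-fold of the median gene. Without centring on the median gene, the scores as deposited put 1218 over 2-fold higher in the ER (11.8%) and 1343 over 2-fold higher in the cytosol (13%). The quartiles were -0.34 and 0.45, so most genes formed a narrow body with a long tail on the ER side. That tail held 527 genes that were over 16-fold toward the ER. An unheaded TRUE or FALSE column of the authors' table divides these genes into 1556 that are called marked here and 8784 that are called unmarked. Marked genes had a median of 2.95 (quartiles 0.71 and 4.59), and 1120 of them (72%) lay toward the ER. Unmarked genes had a median of -0.08 (quartiles -0.39 and 0.27), with 335 (3.81%) toward the ER and 130 toward the cytosol. Counts of 0 toward the ER in short lists of unmarked genes, given below, are therefore near that share. The marked genes were the broader group, since 430 of them (27.6%) lay within 2-fold of the median gene.

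At the ER end stood secreted and ER-resident proteins and a surface receptor. Of the genes with a mean level over that of the median gene, the type I collagen chain Col1a1 had a score of 827 in the ER and 5.85 in the cytosol, a relative value of 7.38. Fstl1, a secreted glycoprotein, scored 1194 and 10.5 (7.16). The matrix proteins Cyr61 (7.10), Mfge8 (7.09) and Sparc (6.93), the ER chaperones Hsp90b1 (7.32) and Calr (7.06), the disulfide isomerases P4hb (7.16) and Pdia3 (7.12), the collagen hydroxylase subunit P4ha1 (7.01) and the transferrin receptor Tfrc (6.89) were also among the 12 highest.

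The cytosol end was short and held many uncertain genes. The 12 lowest genes above the median level included Nutf2, which imports the GTPase Ran into the nucleus, with a score of 36.3 in the ER and 156 in the cytosol (-1.62). The ribosomal protein Rpl29 (-1.57), the histone H3f3b (-1.45) and the actin Actg2 (-1.75) have close copies in the genome, and how the authors assigned reads shared with such copies is not stated. The other 8 (Gm4889, Gm6500, Gm10349, LOC637657, Gm6155, Gm3213, Gm16500 and Gm8290) carry symbols of predicted genes and ranged from -2.25 to -1.44. Predicted genes and pseudogenes by symbol were 31 of the 136 genes toward the cytosol (22.8%), against 5.22% of all genes compared.

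Components that carry out targeting to the ER were themselves divided by where they reside. The 8 listed subunits of SRP, which is soluble, had a median of -0.69, with 0 toward the ER, beside 3.81% of unmarked genes. Srp68 scored 23.5 in the ER and 36.3 in the cytosol (-0.14) and was the highest, and the lowest value was that of Srp9 with 27.0 and 82.5 (-1.12). Srp72 (-0.23), Srp19 (-0.62) and Srp14 (-0.71) lay between, as did Srp54a (-0.67), Srp54b (-0.70) and Srp54c (-0.74), which are near-identical copies and therefore uncertain. The receptor subunits lay on the other side. Srprb, which spans the membrane, scored 77.4 in the ER and 1.64 in the cytosol (5.35), and Srpr, which binds it from the cytosol, 52.7 and 10.2 (2.72).

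Enzymes that act on the growing chain in the ER lay toward it, except for 1 subunit. All 4 measured subunits of signal peptidase, which cuts off signal peptides, did so: Spcs3 (5.09), the catalytic Sec11a (4.87), Spcs2 (4.06) and Spcs1 (2.65). Of the oligosaccharyltransferase, which attaches N-glycans, 9 of 10 subunits lay toward the ER around a median of 5.59, led by Rpn2 (6.51), Rpn1 (6.44) and Ddost (6.25). Dad1 (3.33) and Ostc (2.91) were lower, and Ost4, a subunit that is little more than a membrane segment, scored 445 in the ER and 589 in the cytosol (0.05). Of 7 ER membrane proteins that bind ribosomes or the channel, 6 lay toward the ER. Ckap4 (6.38), the kinectin Ktn1 (5.61), Mtdh (5.52), the channel partners Sec63 (5.24) and Sec62 (4.64) and the ribosome receptor Rrbp1 (4.97) did, whereas Lrrc59 scored 179 and 172 (0.52).

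Within complexes that hold membrane and soluble subunits, these kinds separated. In the ER membrane protein complex, an insertase, 6 of 7 membrane subunits lay toward the ER (median 3.41). Emc3 scored 62.1 in the ER and 1.55 in the cytosol (5.09), followed by Emc1 (4.93), Emc7 (4.55), Emc10 (3.41), Mmgt1 (2.91) and Emc4 (2.56), while Emc6 scored 7.05 and 7.47 (0.39). Its soluble subunits Emc9 (-0.02), Emc8 (-0.30) and Emc2 (-0.89) did not lie toward the ER. The vacuolar ATPase, the proton pump of lysosomes, showed the same arrangement. All 8 measured membrane components of its V0 part or associated with it lay toward the ER (median 3.82), from Atp6ap1 with 186 and 1.99 (6.43) and Atp6ap2 (5.69) over Atp6v0c (4.62), Atp6v0b (4.25), Tcirg1 (3.40) and Atp6v0e (3.36) to Atp6v0a1 (3.02) and Atp6v0a2 (2.93). Of the V1 part, which is assembled from soluble subunits, 0 of 8 did, beside 3.81% of unmarked genes (median -0.41, from Atp6v1f at -0.14 to Atp6v1g1 at -1.12). Atp6v0d1, the peripheral subunit that joins the parts, stood at -0.45 with V1.

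**Figure D1:**
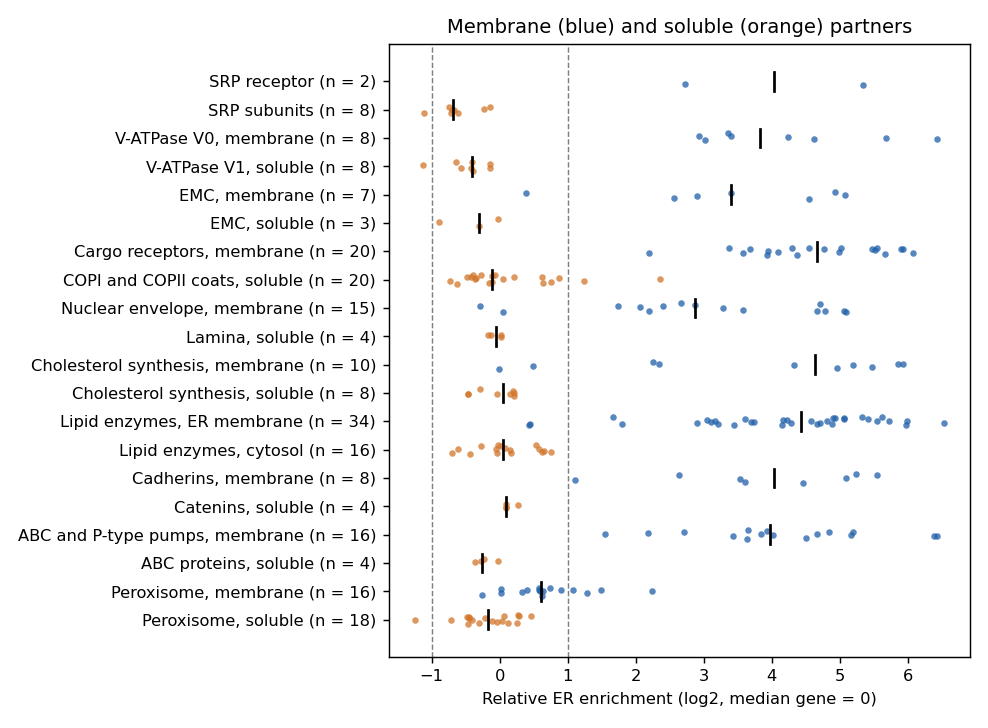
Relative ER enrichment of each measured gene (points) in classes of membrane proteins (blue) and of soluble proteins of the same complex or pathway (orange), with black bars at class medians and dashed lines at -1 and 1. The V0 membrane components lie between 2.93 and 6.43 and the V1 subunits between -1.12 and -0.14, while the peroxisome classes overlap. Ranges also overlap for cargo receptors and coats, nuclear envelope and lamina, the cholesterol synthesis classes and the lipid enzyme classes.

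The same division ran through the machinery of transport. All 20 measured membrane cargo receptors and cargo-handling proteins lay toward the ER (median 4.66), with Surf4 (6.08), the lectin Lman1 (5.93) and Tmed5 (5.91) highest and Cnih4 (3.57), Ergic1 (3.37) and Ergic2 (2.20) lowest. Mcfd2, the luminal partner of Lman1, stood at 4.63. The soluble coat proteins COPI and COPII, which bend the vesicles that carry this cargo, had a median of -0.12. Of the 20, none of them marked, 2 lay toward the ER, beside 14.1% of all genes and 3.81% of unmarked genes. The 2 were the coat GTPase Sar1b, which scored 165 and 43.2 (2.37), and Copb2 (1.25). Sar1a was at 0.87, and Arcn1 (-0.48), Copz1 (-0.63) and Sec13 (-0.72) were lowest.

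SNAREs drive the fusion of these vesicles with their targets. Most have their membrane segment at the C-terminal end. Of 26 tail-anchored SNAREs, all of them marked genes, 0 lay toward the ER (median -0.48), beside 72% of all marked genes. Bet1l scored 15.8 in the ER and 16.8 in the cytosol (0.38), and Stx3 (0.21) and Vamp2 (0.13) came next. Vamp5 (-0.89) and Vti1b (-0.90) were low, and Bnip1, with 5.43 and 18.5 (-1.14), was lowest. The 5 listed partners without a membrane segment had nearly the same median of -0.46, with Ykt6 at -0.03, the fusion ATPase Nsf at -0.35, Napa at -0.46, Snap29 at -0.52 and Snap23 at -0.81.

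Other tail-anchored proteins gave similar values. Of 13 that were listed for the ER or the nuclear membrane, 12 stayed at or below 0.10, from the channel subunit Sec61b with 97.3 and 125 (0.10) and emerin, Emd (0.04), to Cyb5 (-0.65), the ubiquitin-conjugating enzyme Ube2j1 (-0.77) and Serp1 (-0.93). The exception was Pgrmc1, which scored 462 and 4.99 (6.73). Pgrmc1 is anchored near its N-terminal end and was placed in this list in error. Of 19 tail-anchored proteins of the mitochondrial outer membrane, 0 lay toward the ER (median -0.19), from the BCL2 relatives Bcl2l2 (0.93), Bak1 (0.68) and Bcl2l1 (0.50) to Bnip3l (-0.71), the fission factor Fis1 (-0.88) and the import subunit Tomm6 (-1.26). The pathway that inserts tail anchors was divided like SRP. The soluble factors Get4 (0.39), Sgta (0.20), Bag6 (0.09), Ubl4a (-0.51) and the targeting ATPase Asna1 (-0.61) did not lie toward the ER. Its membrane receptors did, Caml with 22.2 and 4.33 (2.58) and Wrb with 11.1 and 2.13 (2.41).

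**Figure D2:**
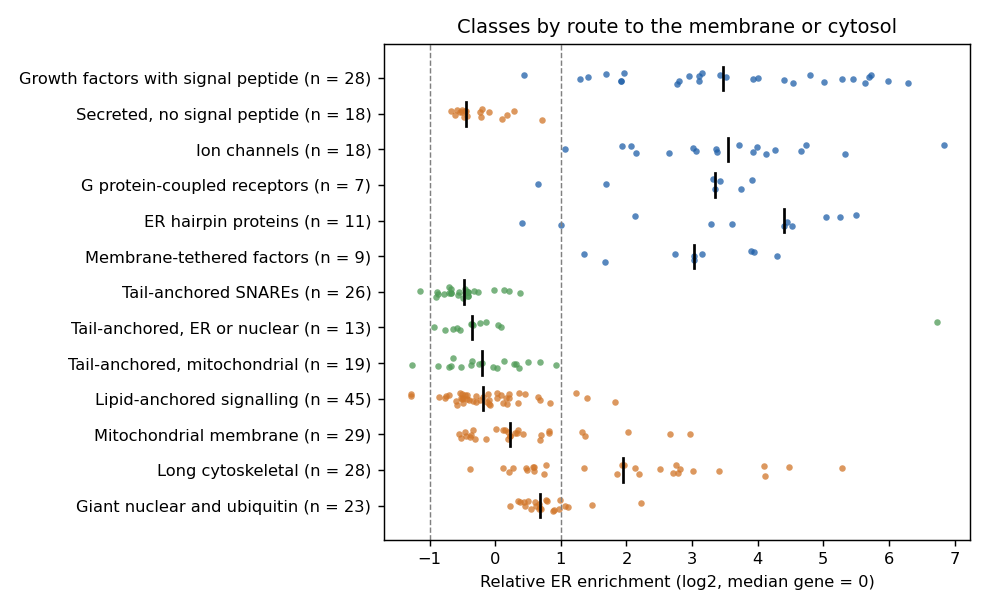
Relative ER enrichment of each measured gene by class, with black bars at medians and dashed lines at -1 and 1. Blue classes are growth factors with a signal peptide, ion channels, G protein-coupled receptors, ER hairpin proteins and membrane-tethered transcription factors. Green classes are tail-anchored proteins, where the point at 6.73 is Pgrmc1, listed in error. Orange marks the remaining listed classes. The 26 tail-anchored SNAREs lie between -1.14 and 0.38, while 18 ion channels lie between 1.06 and 6.83.

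Most measured genes listed for multispanning and hairpin membrane proteins lay toward the ER, beside 14.1% of all genes and 72% of marked genes. All 18 measured ion channels did (median 3.55), among them the gap junction protein Gja1 with 820 and 8.89 (6.83), Lrrc8c (5.33) and Pkd2 (4.73) at the top and the calcium channels Itpr1 (2.06) and Itpr2 (1.06) and the chloride exchanger Clcn6 (1.93) at the bottom. All 16 measured ABC transporters and P-type pumps did as well (median 3.98), led by the ER calcium pump Atp2a2 (6.43), with Abcc1 at 5.19 and with Atp7a (2.71), Abcc5 (2.19) and Abcb8 (1.54) lowest. Their relatives without membrane segments, Abcf1 (-0.03), Abcf3 (-0.24), Abcf2 (-0.28) and the ribosome recycling factor Abce1 (-0.36), did not. An ER score with a blank in the cytosol was given for 23 of the 44 channels and 18 of the 39 transporters and pumps in the table. G protein-coupled receptors were mostly scored in 1 fraction only. Of 59 in the table, 39 had an ER score and a blank in the cytosol, and of the 7 with both scores 6 lay toward the ER. Lphn2 (3.91), the Wnt receptor Fzd2 (3.75), S1pr2 (3.43), Gpr108 (3.35), Lpar6 (3.32) and the hedgehog transducer Smo (1.69) did so, and Gpr137 stood at 0.65. Proteins that shape the ER through hairpins followed, with 10 of 11 toward it (median 4.40), from Arl6ip1 (5.49), Reep5 (5.25) and Rtn3 (5.04) to Atl2 (2.13) and Atl3 (1.01), whereas Spast stood at 0.41. The caveolins, hairpin proteins of surface pits, scored 298 and 72.5 for Cav1 (2.48) and 63.8 and 33.9 for Cav2 (1.35). The cavins that coat those pits from the cytosol did not lie toward the ER, with Prkcdbp at -0.07, Sdpr at -0.20, Ptrf at -0.38 and Murc at -0.41.

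Secreted signals and proteases lay toward the ER where they carry a signal peptide. Of 28 growth factors and cytokines with both scores, 27 did (median 3.47), led by the guidance cues Slit2 (6.28) and Sema3c (5.98) and by Nov (5.73), with Fgf10 (1.42) and the ligand Kitl (1.29) near the bottom. Fgf7 was the exception, with 113 in the ER and 114 in the cytosol (0.44). A further 28 of the 58 in the table had an ER score and a blank in the cytosol. Proteins that reach the outside without a signal peptide had a median of -0.44. Of the 18, 1 of them marked, 0 lay toward the ER, which is near the 3.81% of unmarked genes. They ran from the annexin Anxa2 (0.72), S100a6 (0.29) and Fgf2 (0.18) to Hmgb1 (-0.58), S100a11 (-0.61) and the galectin Lgals3 (-0.67). All 17 measured secreted or surface proteases lay toward the ER (median 4.57), Mmp14 (6.10), Mmp2 (5.94) and Htra1 (5.87) highest and Adam12 (1.91), Pcsk7 (1.53) and Mmp19 (1.29) lowest. Of 9 genes listed as their inhibitors 8 did (median 6.13), with Serpinf1 (6.24), Serpine2 (6.23), Timp1 (5.21) and Pcolce (4.24) among them. Serpinf1 and Pcolce are not protease inhibitors and were listed as such in error. Serpinb9b, of a serpin branch that stays inside cells, stood at 0.08. Calpains, caspases and the calpain inhibitor Cast, which act in the cytosol, ranged from 0.53 (Cast) to -0.69 (Casp6). Capn5 (0.44) and Casp9 (0.25) were next to the top and Casp8 (-0.52) near the bottom. Of these 12, 0 lay toward the ER, beside 3.81% of unmarked genes.

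Adhesion showed a similar division between membrane and cytosolic proteins. All 8 measured cadherins and related proteins lay toward the ER: Cdh2 with 82.9 and 1.47 (5.55), Pcdhgc3 (5.24), Fat1 (5.09), Cdh13 (4.47), Cdh11 (3.60), Pcdh18 (3.53), Fat4 (2.64) and Cdh3 (1.10). The catenins, which act with classical cadherins such as Cdh2 from inside, stayed near the median gene, with Ctnnd1 at 0.27, Jup at 0.10 and Ctnna1 and Ctnnb1 at 0.09. Proteases that cut receptors within the membrane were on the side of the cadherins. All 4 measured gamma-secretase subunits lay toward the ER, among them Ncstn (5.52), Aph1a (3.69) and Psenen (1.36).

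Signalling proteins held at the membrane by a lipid had a median of -0.19. Of the 45, none of them marked, 3 lay toward the ER, beside 14.1% of all genes and 3.81% of unmarked genes. The 3 were the Src family kinases Yes1 with 11.6 and 3.87 (1.83), Src with 10.9 and 5.19 and Fyn with 7.56 and 4.01 (1.23). The G protein gamma subunits Gng5 (-0.85), Gng12 (-1.29) and Gng10 (-1.29) were lowest. Proteins listed for the synthesis and transfer of GPI, a lipid anchor of surface proteins, were on the other side. Of their 12 membrane members 10 lay toward the ER (median 2.76). Pigk (4.95), Pigs (4.66) and Gpaa1 (3.90) of the transamidase were highest, and Pigq (2.10), Piga (0.26) and Pigl (-0.02) lowest, and Dpm1, the soluble catalytic subunit of dolichol phosphate mannose synthase, stood at -0.09.

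Lipid synthesis crosses between compartments, and its enzymes divided accordingly. Of 34 ER membrane enzymes of lipid synthesis 32 lay toward the ER (median 4.43). The desaturases Scd2 (6.54), Scd1 (5.99) and Degs1 (5.98) were highest, and the acyltransferase Agpat1 (1.67) and the acyl-CoA synthetases Acsl1 (0.44) and Acsl4 (0.44) lowest. Of 16 enzymes and carriers of the cytosol 0 did (median 0.05), beside 3.81% of unmarked genes. They ran from Acaca (0.76), the fatty acid synthase Fasn (0.65) and Etnk1 (0.62) to Pcyt1a (-0.43), Pafah1b3 (-0.62) and the fatty acid carrier Fabp5 (-0.70). In cholesterol synthesis 8 of 10 membrane enzymes lay toward the ER (median 4.64). The demethylase Cyp51 stood at 5.94, Sc4mol at 5.86 and Nsdhl at 2.26. The 2 others were squalene synthase Fdft1, with 58.1 and 56.6 (0.50), and lanosterol synthase Lss, with 9.73 and 13.8 (0.00). The 8 soluble enzymes lay between -0.46 and 0.21, with Mvk and Fdps at 0.21, Pmvk at 0.20, Hmgcs1 at 0.15, Mvd at -0.04, Acat2 at -0.28 and Idi1 and Ggps1 at -0.46.

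Transcription factors that are made as membrane precursors lay toward the ER although only 1 of the 9 was a marked gene. The sterol regulators Srebf2, with 33.5 and 1.41 (4.30), and Srebf1 (3.94) and the stress sensor Atf6, with 16.3 and 0.601 (3.89), were highest. Creb3l2 (2.74) and Creb3l1 (1.68) were lower, and Xbp1, whose mRNA is spliced at the ER by IRE1, scored 22.2 and 11.5 (1.35).

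The nuclear envelope is continuous with the ER, and 13 of 15 of its membrane proteins lay toward the ER (median 2.87). Tmem48 (5.09), Tmem43 (5.06) and Sun2 (4.79) were highest and Syne3 (1.74) was the lowest of the 13. Emd (0.04) and Tmpo, with 102 and 171 (-0.28), were the others. Emd and Tmpo have their membrane segment at the C-terminal end, as do Syne3 and Syne2 (2.06), which lay toward the ER. The lamina beneath it did not lie toward the ER, with Lmna and Lmnb1 at 0.02, Lmnb2 at -0.13 and Banf1 at -0.17. Soluble nucleoporins had a median of -0.17, and 3 of 25 lay toward the ER: Nup155 with 39.2 and 5.25 (3.14), Ranbp2 (1.86) and Nup98 (1.18). None of the 25 was a marked gene, and the share stands beside 14.1% of all genes and 3.81% of unmarked genes. Nupl1 (-0.55), Nup88 (-0.69) and Nup35 (-0.77) were lowest.

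Most listed membrane proteins of mitochondria and peroxisomes stayed within 2-fold of the median gene. In mitochondrial import, 2 of 7 outer membrane, 1 of 7 inner membrane and 0 of 10 other components lay toward the ER. The channel Tomm40 scored 27.6 and 10.9 (1.72), the receptor Tomm20 268 and 112 (1.72) and Timm21 6.73 and 3.02. These are few genes, beside 14.1% of all genes toward the ER. The remaining outer membrane subunits were Tomm22 (0.28), Tomm7 (0.03), Tomm70a (-0.22), Tomm5 (-0.24) and Tomm6 (-1.26), and the remaining inner membrane ones Timm50 (0.64), Timm22 (0.60), Timm23 (0.33), Dnajc19 (0.30), Timm17a (-0.18) and Timm17b (-0.68). The components of the matrix and intermembrane space ran from the processing peptidases Pmpcb (0.89) and Pmpca (0.55) and Timm44 (0.41) to Timm8b (-0.24), Timm9 (-0.28) and Grpel1 (-0.32). Of 29 other mitochondrial membrane or membrane-bound proteins 5 lay toward the ER (median 0.23), a share near the 14.1% of all genes, led by the protease Spg7, with 11.7 and 1.22 (2.97), the transporter Abcb10 (2.67) and the cation exchanger Letm1 (2.02). Sfxn1 (-0.46), the channel Vdac3 (-0.52) and the fission GTPase Dnm1l (-0.55) were lowest. Of 16 proteins listed for the peroxisomal membrane 4 lay toward the ER, beside 14.1% of all genes. Their median of 0.61 was above the upper quartile of all genes (0.45). Abcd4 (2.25), whose listing as peroxisomal is doubtful, and Pex14 (1.49) were highest, and Acbd5 and Pxmp4 (0.02) and Far1 (-0.27) lowest. Of 18 soluble proteins of peroxisomes and their import 0 did (median -0.16), from Acox3 (0.46) and Gnpat (0.28) to Pex7 (-0.48), Scp2 (-0.71) and Phyh (-1.24).

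Related proteins made for different compartments were set against each other in 16 groups. Most are families, but some share only a fold or an activity, and 1 sets the galectins against Lgals3bp, which binds galectins and is not related to them. The 40 measured members of the secretory pathway had a median of 5.67, and 39 of them lay toward the ER, while 1 of 47 cytosolic members and 0 of 8 mitochondrial members did (medians -0.51 and -0.46). In every group the lowest secretory member lay above the highest cytosolic or mitochondrial one, beside a background of 14.1% of all genes toward the ER. The difference between the secretory and cytosolic medians of a group ranged from 0.26 to 7.38, with a median of 5.93. Among HSP70 chaperones, Hspa5 of the ER scored 711 and 7.72 (6.81), Hspa8 of the cytosol 1124 and 1704 (-0.14) and Hspa9 of mitochondria 305 and 372 (0.17). The pattern recurred in small enzymes. The ER cyclophilin Ppib scored 576 and 13.6 (5.76) against 2455 and 5230 for Ppia (-0.63). The peroxiredoxin Prdx4 scored 251 and 3.45 (6.28) against 1011 and 1948 for Prdx1 (-0.49). For superoxide dismutases the values were 5.17 for the secreted Sod3, -0.48 for Sod1 and -0.77 for the mitochondrial Sod2. The protease inhibitors Cst3 (6.13) and Cstb (-0.11), the glutathione peroxidases Gpx8 (4.60) and Gpx4 (-0.66), and the isomerases Fkbp10 (5.90) and Fkbp1a (-1.15) divided alike. The smallest difference was that of Fgf7 (0.44) from Fgf2 (0.18), and the 1 cytosolic member toward the ER was the Golgi GTPase Arl1, with 125 and 73.9 (1.21), which was grouped with the beta subunit of the SRP receptor.

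**Figure D3:**
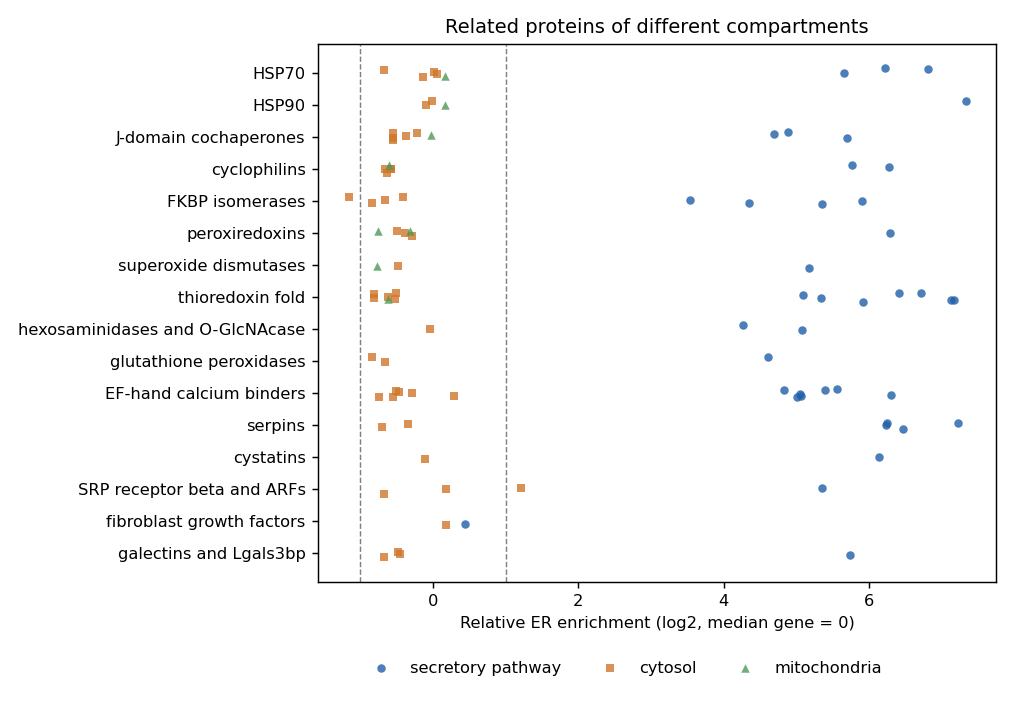
Relative ER enrichment of each measured member of 16 protein groups, for members of the secretory pathway (circles), the cytosol (squares) and mitochondria (triangles), with dashed lines at -1 and 1. Secretory members lie at 3.53 or above in every group but the fibroblast growth factors, where Fgf7 is at 0.44.

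Of 28 listed long cytoskeletal proteins, which have no signal peptide and none of which was a marked gene, 17 lay toward the ER (median 1.95), beside 14.1% of all genes. Vinculin, Vcl, which ties actin to adhesion sites, scored 359 and 11.7 (5.28). The scaffold Ahnak scored 98.9 and 6.97 (4.11). Plec, a linker of filaments, stood at 4.10 and the scaffold Iqgap1 at 3.02. The myosin heavy chains Myh10 (0.21) and Myh9, with 116 and 147 (0.11), and the microtubule protein Map4 (-0.38) were lowest. Of 23 giant nuclear and ubiquitin-pathway proteins 4 lay toward the ER (median 0.68), namely Mki67 (2.22), Trrap (1.47), Ubr4 (1.10) and Huwe1. That share was near the 14.1% of all genes, but no member was marked, and 3.81% of unmarked genes lay toward the ER. The lower quartile of these proteins (0.53) was above the upper quartile of all genes (0.45). The lowest were Atr (0.38), Atm (0.35) and Tpr (0.23). The chaperonin TRiC had a median of -0.37 (0 of 8 toward the ER), from Cct7 (-0.05), Cct2 (-0.12), Tcp1 (-0.23), Cct3 (-0.35), Cct8 (-0.39) and Cct5 (-0.44) to Cct4 and Cct6a (-0.62). The splicing factors of the U2 and U5 particles had a median of -0.38, with Prpf8 (1.37) alone of 22 toward the ER, followed by Snrnp200 (0.53) and Sf3b1 (0.09), and with Snrpg (-0.76), Snrpa (-0.81) and Snrpd1 (-0.85) lowest. In autophagy the membrane proteins Vmp1 (4.25) and Tmem41b (3.81) lay toward the ER. Of 19 soluble or lipid-conjugated ones 0 did (median -0.41), beside 3.81% of unmarked genes. These ran from Nbr1 (0.63), Wipi2 (0.27) and Ulk1 (0.01) to Gabarap (-0.61), Gabarapl2 (-0.73) and Map1lc3b (-0.95).

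Unmarked genes at the top and marked genes at the bottom crossed the division, and these genes were singled out after their values were seen. The highest unmarked gene was Spp1, the secreted protein osteopontin, with 1446 and 20.8 (6.51). Vcl followed, then Atad1, an extractor of misplaced tail-anchored proteins, with 89.3 and 2.96 (4.97), and Sptlc2, a subunit of the enzyme that begins sphingolipid synthesis, with 48.1 and 1.41 (4.81). The lowest marked gene was Il1rn, the interleukin-1 receptor antagonist, with 33.4 and 122 (-1.38).

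In the mRNA of the same fractions, sequenced without nuclease footprinting, marked genes lay less far toward the ER where both mRNA scores were given. Only 273 of the 1556 marked genes had both. Genes with a blank mRNA score in the cytosol were left out, among them Rpn1, Spcs3 and Scd2, with ER mRNA scores of 31.2, 59.9 and 43.5. Among 3346 of the genes with mRNA scores in both fractions, 285 lay toward the ER (8.52%) and 132 toward the cytosol (3.95%), each gene again taken relative to the median. In footprints, 303 of the same 3346 genes lay toward the ER and 45 toward the cytosol. For 273 marked genes the median was 0.92 in mRNA and 2.85 in footprints. Of 303 genes toward the ER in footprints, 180 (59.4%) also were in mRNA, and they made up 63.2% of the mRNA genes toward the ER. Across genes Pearson's r was 0.72 and Spearman's rho 0.52, as a description, since both readouts come from the same fractionated cell type. Srprb stood at 5.35 in footprints and 0.10 in mRNA, whereas Srpr stood at 2.72 and 2.45. The long cytoskeletal proteins lay toward the ER in mRNA too, in 14 of 26 cases (median 1.05), with Vcl at 3.64 and Ahnak at 3.17. For 6 tail-anchored SNAREs the mRNA median was -0.39, with 0 toward the ER.

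Most genes toward the ER in untreated cells also lay there in treated cells, and most genes toward the cytosol did not. At 4 h of Tg, 1221 of 10126 genes lay toward the ER (12.1%) and 179 toward the cytosol (1.77%). Of 1438 genes toward the ER in untreated cells 1167 (81.2%) were so at 4 h, and they were 95.6% of the genes toward the ER at 4 h. Toward the cytosol, 31 of 130 (23.8%) were so at 4 h, or 17.3% of those at 4 h. After DTT and 20 min of recovery, 1353 of 10059 genes lay toward the ER (13.5%) and 90 toward the cytosol (0.895%). Of 1425 genes 1172 (82.2%) lay toward the ER in both, or 86.6% of those after recovery, and 7 of 133 (5.26%) toward the cytosol in both, or 7.78%. The marked median was 2.06 at 4 h of Tg against 3.02 in untreated cells for the same genes, and 2.17 after DTT against 3.05. The 26 tail-anchored SNAREs had medians of -0.35 at 4 h of Tg, with 0 toward the ER, and -0.21 after DTT, with 1 toward the ER, Vamp2 at 1.95. The median of the long cytoskeletal proteins was 1.01 at 4 h of Tg and 0.50 after DTT, and Vcl stood at 3.08 and 2.78.

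**Figure D4:**
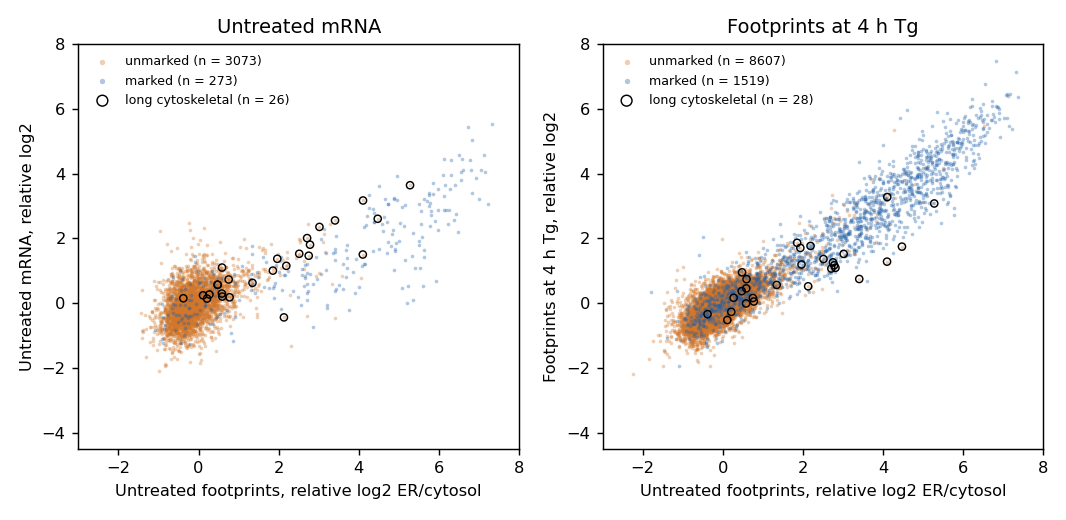
Relative log2 ratio of ER to cytosol for each gene in untreated footprints (x axes) against untreated mRNA (left) and footprints at 4 h of Tg (right), for marked and unmarked genes, with long cytoskeletal proteins circled. The marked median is 0.92 in mRNA and 2.06 at 4 h of Tg, below the untreated footprint medians of 2.85 and 3.02 for the same genes.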

How the data were processed

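Footprints were made by nuclease digestion of ribosomes in each fraction, per the labels' protocols. The aligner was Bowtie, per the submitters' processing notes, and its version and the build were not given in the sources used here. As deposited, a gene's translation and mRNA values are a score on a scale that the file headers leave unnamed, with 1 pooled value for the 2 replicates of a group. The deposited column of TRUE or FALSE has no header and its unit is other. Blanks are not explained, and depth is unknown. For DTT samples the assay is missing from the labels and was read from the file headers. Untreated scores in the DTT table were 0.913 times (ER) and 1.06 times (cytosol) those in the Tg table.

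From these scores the difference log2(ER + 1) minus log2(cytosol + 1) was computed for genes with both values, minus its median, in Python 3.11.15 with pandas 2.3.3 and numpy 2.4.6. Genes beyond 1 in size count as over 2-fold. No comparison was tested, since pooled values have no replicate spread. The script was tested on simulated data. The genes, the 46 lists, the 16 protein groups and the calls were chosen with earlier results of these data known, so no list is independent evidence. Named genes were the 12 highest and 12 lowest whose log2 level, averaged over both fractions, exceeded the median, every measured member of a list class with up to 8, and otherwise its 3 highest and 3 lowest, and others were chosen after their values were seen. Not every gene of the families and of the marker lists is named, and some genes that meet the rule are not reported here. A total of 26 genes share both scores with another gene and were counted once within a list. Planned summaries by protein sequence and length were not run, because no protein sequences were at hand. Mitochondrially encoded genes were not analysed here. Alternatives are given in the closing section.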

Additional observations from a re-analysis of the deposited data

How the results depend on the processing

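No named gene over 2-fold, list median above 1 or group difference above 1 changed sign under any of the alternatives run. The 1455 genes toward the ER numbered between 1059 and 1747 in the settings not named here, became 660 under a strict filter on the mean level, and 2601 with a blank in 1 fraction taken as 0. The 136 genes toward the cytosol became 219 with a pseudocount of 0.1, 265 with none (chosen after seeing the data), 35 under the strict filter, 334 with blanks as 0, 1343 without centring on the median gene and 1 at a 4-fold call. The marked minus unmarked median of 3.03 became 3.81 with a pseudocount of 0.1, 3.95 with none, 3.98 under the strict filter and 2.25 with blanks as 0. List medians above 1 numbered 22 of 51 in every setting except the strict filter, where they were 19 of 47. Of 328 named or listed genes over 2-fold, 22 no longer were without centring, 6 with blanks as 0, 1 with the untreated columns of the DTT table and 1 without predicted genes, ribosomal proteins and histones (chosen after seeing the data), and 4 of 179 were lost under the strict filter. Of 728 such genes with a value, 182 moved by over 1.5-fold with no pseudocount and 165 with one of 0.1, as did 18 and 15 list medians, and 10 under the strict filter. No paired analysis was possible because each group is 1 pooled value, and leaving out a replicate was not possible for the same reason. Other thresholds for hydrophobic segments, leader sequences and protein length were not run. The added 1 shrinks the ratios of genes with low scores.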

Other observations

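Genes with an ER score and a blank in the cytosol stood outside the comparison. They numbered 2336, of which 1657 were marked, with a median ER score of 0.781 and an upper quartile of 3.48. Among them, 212 scored above 10 and 203 of these were marked. The highest was Cd151, a tetraspanin of the cell surface, at 103. Tmed7, a cargo receptor, scored 53.5, Gprc5a, an orphan receptor, 51.4, the matrix protein Smoc2 51.2, the Golgi protein Tmem165 49.1 and Tspan9, another tetraspanin, 47.9. Only 45 genes had a cytosol score and a blank in the ER, 4 of them marked, and the highest of these scored 17.1. The files do not say what blanks mean.

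Families formed from the opening words of the gene descriptions, with at least 20 genes each, were a view chosen after seeing the data. Of 53 such families, 2 had a median above 1, namely solute carriers (2.45, with 46 of 80 toward the ER) and genes described as transmembrane proteins (2.19, with 64 of 88). The next highest median was 0.30 and the lowest was -0.69, for genes described as 60S ribosomal proteins. Solute carriers were spread widely, with quartiles of 0.03 and 3.95. Tyrosine phosphatases divided by type, with 4 of 5 receptor-type genes toward the ER (median 3.62, from 0.30 to 5.15) and 1 of 13 non-receptor genes (median 0.14, from -0.39 to 1.23).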
